A study of Mus musculus with 11 samples.

Results

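The genes described here encode enzymes and adaptor proteins that set, erase, read or reposition histones, and the rule that picks them reads the gene symbol. A gene was a member when its symbol began with Kdm (lysine demethylases), Setd (SET-domain methyltransferases), Ezh (the Polycomb methyltransferases), Hdac (histone deacetylases), Smarc (ATPases and subunits of SWI/SNF-type remodellers) or Brd (bromodomain proteins), or with Sirt (sirtuin deacetylases) or Kat (acetyltransferases) and a digit. The rule found 72 of the 26061 genes in the deposited table, 16 Kdm, 11 Setd, 2 Ezh, 11 Hdac, 7 Sirt, 3 Kat, 14 Smarc and 8 Brd genes. One of the 14 Smarc rows, Smarca5-ps, is a transcribed pseudogene of Smarca5, and Setd8 is now named Kmt5a.

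RNA was taken from BV2, a mouse microglial line that was made to grow indefinitely. Grown in 10% serum, the cells had received, with a Lipofectamine reagent, a non-targeting control siRNA (siScr) or siRNAs against Tet2 (siTet2), whose product oxidises methylated cytosine in DNA. At 48 h after transfection the cells went into medium with 5% serum and were left without lipopolysaccharide (LPS) or received 1 µg/ml of this ligand of the receptor Tlr4 for 3 h. Without LPS there were 3 siScr and 3 siTet2 libraries, and with LPS 3 siScr and 2 siTet2 libraries (replicates 2 and 3). All groups are transient transfections of 1 cell line. Nothing in the labels ties replicates to separate cultures, so p-values measure the spread between these libraries, which may be technical.

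Histone acetylation loosens chromatin and recruits bromodomain proteins, and deacetylases and sirtuins reverse it. Methylation of histone H3 can mark active promoters or silenced genes depending on the lysine. Kdm enzymes remove some of the methyl marks that Setd and Ezh enzymes write. In macrophages and microglia exposed to LPS, inflammatory promoters gain acetylation, SWI/SNF complexes open a subset of them, and Kdm6b is a classical early induced gene.

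The 11 libraries held 8739716 to 23030426 reads on genes. Replicate 3 of the untreated siScr cells was 1 of the 2 shallow libraries, with 8764031 reads, yet had reads on 16406 genes, against 12866 to 14180 in the other 10. Of 12 microglia and macrophage markers 11 were found under the symbols searched and all 11 passed the filter, but the homeostatic markers P2ry12 and Tmem119 were low, at 14.8 and 33.5 normalised reads on average in untreated siScr cells. Of the markers of neurons, astrocytes, oligodendrocytes, endothelial cells and fibroblasts 4 of 22 passed, and Mog, Olig2, Cldn5 and Dcn had 0 reads in all libraries. Tet2 had 1827 to 2399 normalised reads in untreated siScr cells and 1453 to 1988 in untreated siTet2 cells, so both groups overlapped. After LPS it had 10405 to 16792 with siScr and 7969 and 9238 with siTet2, which lay apart. Neither Tet2 difference between siRNAs passed the test, at -0.28 untreated (limma, adjusted p = 0.566) and -0.67 after LPS (limma, adjusted p = 0.165) on the log2 scale.

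Promoter sequences are shown for the member with the largest LPS response, Setdb2, and for a pair of demethylase genes that LPS raised and that share a motif, Kdm4a and Kdm5c. Each runs from 250 bases before to 50 bases after the gene's start, 5′ to 3′ on the gene's strand, from RefSeq on GRCm38.p6, which is not the mm9 build named in the submitters' processing notes. Capitals mark TGANTCA, the letters bound by AP-1 factors. The Setdb2 window (chr14:59440831-59441130, minus strand) held no such letters, the Kdm4a window (chr4:118179994-118180293, minus strand) held them from 190 bases before the start, and the Kdm5c window (chrX:152232977-152233276, plus strand) from 71 bases before it.
Setdb2: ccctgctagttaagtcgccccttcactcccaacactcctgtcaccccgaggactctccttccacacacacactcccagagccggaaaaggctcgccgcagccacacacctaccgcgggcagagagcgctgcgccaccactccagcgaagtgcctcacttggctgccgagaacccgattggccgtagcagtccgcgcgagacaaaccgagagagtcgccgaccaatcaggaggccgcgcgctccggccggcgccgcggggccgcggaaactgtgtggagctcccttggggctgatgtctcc
Kdm4a: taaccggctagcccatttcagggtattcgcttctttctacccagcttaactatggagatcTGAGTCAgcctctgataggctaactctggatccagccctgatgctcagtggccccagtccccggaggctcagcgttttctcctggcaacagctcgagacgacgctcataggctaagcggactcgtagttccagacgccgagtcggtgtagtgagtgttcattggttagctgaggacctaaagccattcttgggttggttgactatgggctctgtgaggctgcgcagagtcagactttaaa
Kdm5c: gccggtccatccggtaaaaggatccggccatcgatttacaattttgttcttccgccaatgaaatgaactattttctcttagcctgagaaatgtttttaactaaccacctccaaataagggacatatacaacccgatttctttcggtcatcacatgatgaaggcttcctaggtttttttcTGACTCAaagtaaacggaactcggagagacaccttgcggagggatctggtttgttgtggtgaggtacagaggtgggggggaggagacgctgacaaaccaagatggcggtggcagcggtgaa
The table of promoters matched 59 of the 72 members, with 80 windows, and Kdm6b was not among them. TGANTCA, which reads the same on both strands, stood in 10 of these 80 windows, from 9 genes, and in 7.81% of all 32851 windows. Of the 9 genes Kdm4a and Kdm5c rose with LPS, and Kdm3a and Hdac9 fell. The others were Smarca2 and Brdt, which passed as lower in siTet2 cells only, and Hdac7, Kat2b and Smarcb1, which did not pass. Of the other motifs searched, the interferon response element was in 2 of the 80 windows, those of Brd7 and Kat5, and in 3.44% of all, and the NF-kB site in 0 and in 0.411% of all. A match is a description of these letters, and both directions of change were among the genes that held TGANTCA.

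Of the 72 members 67 passed the filter, which asked for 2 libraries at least 1 log2 unit above the value that stands for 0 reads. Kdm4d, a demethylase known from testis, and Kdm5d, encoded on the Y chromosome, had 0 reads in all 11 libraries, which allows up to 3 reads in each by counting error alone. Smarca1, an ISWI-type ATPase, had 1 read and Hdac11 had 3, all in replicate 3 of the untreated siScr cells. Smarcd3, the alternative SWI/SNF subunit known from heart muscle, had 53 reads over all libraries. These 5 genes entered no test.

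The level of each tested member was set against its exon length. Reads here are normalised reads, the deposited values brought back from the log scale to reads adjusted for library size, and per-length levels are such reads per kilobase of exon. In untreated siScr cells the median member had 235 reads per kilobase, and members ranged from Hdac7 at 3.45 to Brd2 at 1359 ± 332 (SD, n = 3). Setd8, which methylates histone H4, was next at 1230 ± 143 (SD, n = 3), a difference from Brd2 smaller than the spread, and was the highest Setd gene. Sirt2, a mainly cytoplasmic deacetylase, led the sirtuins at 816 ± 94.9 (SD, n = 3), and the SWI/SNF ATPase Smarca4 led the Smarc genes at 715 ± 160 (SD, n = 3). The highest in the other families were Kdm5c at 487 ± 56.2 (SD, n = 3), Kat2a at 351 ± 90.2 (SD, n = 3), Hdac1 at 319 ± 82.3 (SD, n = 3) and Ezh2 at 182 ± 71.8 (SD, n = 3). The lowest tested members per kilobase were the testis bromodomain gene Brdt at 8.22, Kdm5b at 9.07, Sirt4 at 20.9, Setd4 at 42.2, Ezh1 at 68.1, Kat2b at 114 and Smarcal1 at 142, each within its own family.

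LPS in siScr cells asked which chromatin genes respond within 3 h in cells given the non-targeting siRNA. Members changed in both directions: 7 rose and 7 fell (limma, adjusted p under 0.05), 20.9% of the 67 against 23.7% of all genes. Setdb2, of the family of histone H3 methyltransferases linked to silencing, had the largest difference of the 67 members, and the demethylase genes Kdm6b, Kdm4a and Kdm5c, the bromodomain gene Brd2, Setdb1 and the ISWI ATPase Smarca5 rose with it. The class IIa deacetylase genes Hdac9 and Hdac5, the bromodomain gene Brd3, the SWI/SNF subunit gene Smarcd2, the sirtuin Sirt3, the demethylase Kdm3a and the remodeller Smarcad1 fell. The share of members called higher was 10.4% against 13.2% of all 12486 genes tested, and the share called lower was 10.4% against 10.4%. At an unadjusted p under 0.05 there were 25 members, 37.3%, against 34.7% of all genes. In 13 members all LPS libraries lay above all untreated ones, 19.4% against 19.2% of all genes, and in 12 they lay below, 17.9% against 18.3%. The members were thus called about as often as other genes. The median member differed by 0.03 and the median gene by -0.02 on the log2 scale, and the median size of the difference regardless of sign was 0.25 for members and 0.31 for all genes. At least 1 log2 unit of difference was seen in 4 of 67 members, 5.97%, and in 11.1% of all genes. In bulk RNA, fewer cells with a transcript and less of it per cell cannot be told apart.

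**Figure D1:**
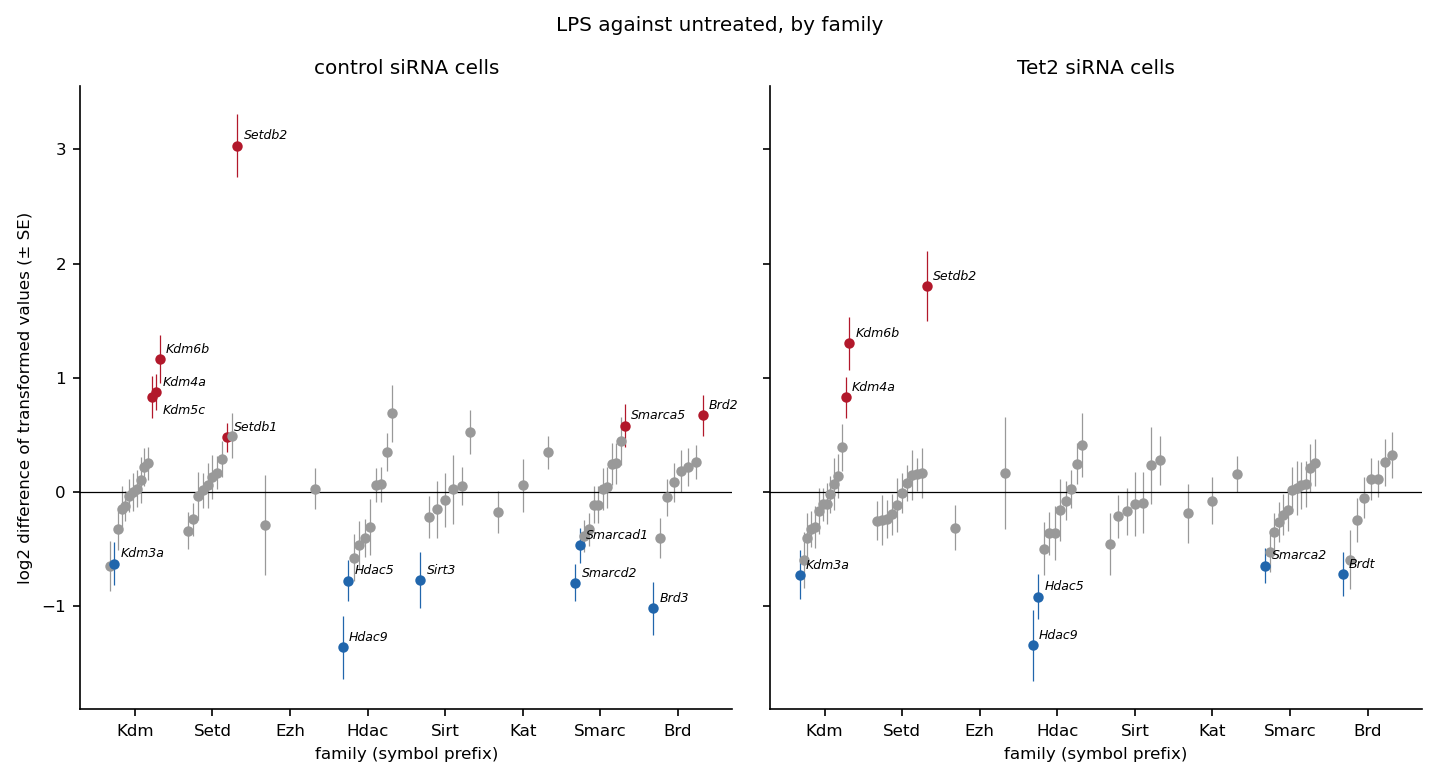
Log2 difference between LPS-treated and untreated cells for each of the 67 tested members (points, with SE bars), grouped by symbol prefix, in siScr cells (left) and siTet2 cells (right). Red and blue points passed the test as higher and lower, and grey points did not pass. Setdb2 lies highest in both panels, at 3.03 and 1.81, and Hdac9 lowest, at -1.36 and -1.34.

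Among the methyltransferases, Setdb2 had 282, 297 and 172 normalised reads in the 3 untreated siScr libraries and 1799, 3701 and 1644 after LPS. All LPS libraries lay above all untreated ones, and replicate 2 exceeded the other LPS libraries. Setdb2 thus rose by 3.03 on the log2 scale (SE 0.28, limma, adjusted p = 4.18e-06), from a mean of 250 ± 68.0 (SD, n = 3) to 2381 ± 1145 (SD, n = 3). Its close relative Setdb1, which silences retroelements, had 2288, 2209 and 2119 untreated and 3419, 2846 and 3019 after LPS. These groups did not overlap either, but the increase was 0.48 (SE 0.13, limma, adjusted p = 0.0165). Per kilobase, the ratio of Setdb2 to Setdb1 went from 0.147, 0.160 and 0.0969 in the untreated libraries to 0.627, 1.55 and 0.649, so that it passed 1 in replicate 2 alone. The exact two-sided permutation test of this ratio gave p = 0.1, the smallest that 3 against 3 libraries allow. This pair and those of the other ratios were chosen after values were seen, so p-values of ratios add no separate support. The other 9 Setd genes did not pass. They include Setd2, which methylates histone H3 along transcribed genes, at 0.01 (SE 0.16), Setd7 at -0.24 (SE 0.15), Setd8 at 0.13 (SE 0.20), and the promoter methyltransferases Setd1a at -0.34 (SE 0.16) and Setd1b at 0.49 (SE 0.19, limma, adjusted p = 0.0870). The catalytic Polycomb genes did not pass, with Ezh1 at 0.03 (SE 0.18) and Ezh2 at -0.29 (SE 0.44).

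Of 14 tested demethylase genes 3 rose and 1 fell. Kdm6b, which removes the methyl mark that the Ezh enzymes write, had 187, 184 and 346 normalised reads untreated and 551, 565 and 539 after LPS. The untreated library at 346 was replicate 3, the shallow one with many genes detected, and it still lay below every LPS library. Kdm6b rose by 1.16 (SE 0.21, limma, adjusted p = 0.00123), and by 1.43 without that library. Its relative Kdm6a, which is constitutively expressed in many tissues, had 1508, 1507 and 1295 untreated and 916, 1329 and 1209 after LPS, ranges that overlapped (-0.32, SE 0.18). The ratio of Kdm6b to Kdm6a per kilobase was 0.110, 0.109 and 0.238 untreated and 0.537, 0.379 and 0.397 after LPS, again without overlap (exact permutation p = 0.1). Kdm6a therefore remained the more abundant transcript per kilobase in each of these 6 libraries.

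Kdm4a, a demethylase of repressive histone H3 marks, had 1059, 1066 and 1035 normalised reads untreated and 2392, 1608 and 1949 after LPS. The untreated libraries were close together and all lay below the LPS libraries, a rise of 0.87 (SE 0.16, limma, adjusted p = 0.00124). Its paralogs Kdm4b at -0.15 (SE 0.20) and Kdm4c at 0.00 (SE 0.16) did not pass. Kdm5c, an X-linked eraser of the active promoter mark, had 3146, 2934 and 3663 untreated and 7886, 5027 and 4845 after LPS, with replicate 1 far above the other LPS libraries. Kdm5c rose by 0.83 (SE 0.18, limma, adjusted p = 0.00507). Neither Kdm5a, at 0.25 (SE 0.14), nor Kdm5b, at 0.10 (SE 0.20), passed, and the ratio of Kdm5c to Kdm5a per kilobase went from a mean of 2.02 ± 0.284 (SD, n = 3) to 3.03 ± 0.555 (SD, n = 3). Kdm3a, a hypoxia-linked demethylase of a silencing mark, had 1399, 995 and 884 untreated and 702, 568 and 801 after LPS. It fell by 0.63 (SE 0.19, limma, adjusted p = 0.0310). Kdm2b, at -0.65 (SE 0.22, limma, adjusted p = 0.05004), lay just outside the threshold, and Kdm1a, the flavin-dependent demethylase LSD1, was at 0.22 (SE 0.17).

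No Hdac gene passed the test as higher. Both Hdac genes that passed as lower were of class IIa, whose members shuttle between nucleus and cytoplasm and bind MEF2 factors. Hdac9 had 2501, 2626 and 3125 normalised reads untreated and 702, 1242 and 1313 after LPS. Its groups lay far apart, and it fell by 1.36 (SE 0.28, limma, adjusted p = 0.00288). Hdac5 had 881, 913 and 1221 untreated and 684, 548 and 487 after LPS, without overlap, and fell by 0.78 (SE 0.18, limma, adjusted p = 0.00664). The third well-expressed class IIa gene, Hdac4, was at -0.57 (SE 0.21, limma, adjusted p = 0.0616), with overlapping groups of 277, 382 and 490 untreated and 278, 202 and 250 after LPS. Hdac7, the remaining class IIa gene, had 26 normalised reads or fewer in every library and was at -0.30 (SE 0.24). None of the class I genes, which act in nuclear corepressor complexes, passed. Hdac1 had 461, 785 and 701 normalised reads untreated and 935, 1138 and 1066 after LPS, without overlap. It was at 0.69 (SE 0.25, limma, adjusted p = 0.0641) and passed in an alternative other than library weights. Hdac2 was at 0.35 (SE 0.16, limma, adjusted p = 0.146), Hdac3 at 0.07 (SE 0.15) and Hdac8 at -0.40 (SE 0.17).

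Of 7 sirtuin genes Sirt3, which deacetylates mitochondrial proteins, passed, at a low level of expression. It had 92, 68 and 148 normalised reads untreated and 70, 32 and 43 after LPS, groups that overlapped, and fell by 0.77 (SE 0.24, limma, adjusted p = 0.0359). Sirt1, a nuclear deacetylase that acts on the NF-kB subunit RelA, had 728, 618 and 397 untreated and 899, 791 and 800 after LPS. Those groups did not overlap, but the difference of 0.53 (SE 0.19, limma, adjusted p = 0.0654) did not pass. Sirt2 was at -0.15 (SE 0.25) and Sirt6 at 0.02 (SE 0.30). The acetyltransferase genes did not pass, with Kat5 (Tip60) at 0.35 (SE 0.14, limma, adjusted p = 0.102), Kat2a at -0.17 (SE 0.18) and Kat2b at 0.06 (SE 0.23).

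Among the 12 tested remodeller genes, the clearest change was in Smarcd2, which encodes the form of an exchangeable SWI/SNF subunit that is known from granulocytes. It had 727, 787 and 769 normalised reads untreated and 362, 471 and 451 after LPS, and fell by 0.79 (SE 0.16, limma, adjusted p = 0.00299). The alternative subunit Smarcd1 did not pass, at 0.04 (SE 0.18). Per kilobase, Smarcd2 exceeded Smarcd1 in all 3 untreated libraries, with ratios of 1.79, 1.56 and 1.77, and not in the LPS libraries, with 0.868, 0.998 and 0.905 (exact permutation p = 0.1). The core subunits Smarcb1 at 0.24 (SE 0.18), Smarcc1 at -0.11 (SE 0.16), Smarcc2 at -0.11 (SE 0.16) and Smarce1 at 0.25 (SE 0.18) did not pass. Neither did the catalytic genes Smarca4, at 0.03 (SE 0.18), and Smarca2, at -0.38 (SE 0.14, limma, adjusted p = 0.0600). Smarca5 had 2623, 2663 and 1737 untreated and 3220, 3456 and 3712 after LPS, and rose by 0.58 (SE 0.19, limma, adjusted p = 0.0392). The pseudogene row Smarca5-ps was at 0.45 (SE 0.21), and reads of such a near-identical copy can have been counted for either, so both rows are uncertain. Smarcad1, a remodeller linked to DNA repair and heterochromatin, fell by 0.47 (SE 0.16, limma, adjusted p = 0.0477), from 962, 895 and 703 to 601, 613 and 595.

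The BET genes Brd2 and Brd3, whose products bind acetylated histones and recruit the transcription machinery, moved in opposite directions. Brd2 had 5280, 6408 and 8523 normalised reads untreated and 11602, 10859 and 9328 after LPS, and rose by 0.67 (SE 0.18, limma, adjusted p = 0.0145). Brd3 had 1773, 1798 and 3376 untreated and 1137, 982 and 1114 after LPS, and fell by 1.02 (SE 0.23, limma, adjusted p = 0.00582). The Brd3 value of 3376 belongs to replicate 3 of the untreated siScr cells, and without it the fall was 0.71. Per kilobase, the Brd2 to Brd3 ratio was 3.35, 4.01 and 2.84 untreated and 11.5, 12.5 and 9.43 after LPS (exact permutation p = 0.1). Taken within each library, this ratio does not depend on the scaling between libraries, but it cannot show which gene moved. Brd1, Brd7, Brd8 and Brd9 lay between -0.05 and 0.26 and did not pass. Brdt did not pass either, at -0.40 (SE 0.17, limma, adjusted p = 0.119). It had 47, 46 and 32 normalised reads untreated and 28, 26 and 23 after LPS, without overlap.

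**Figure D2:**
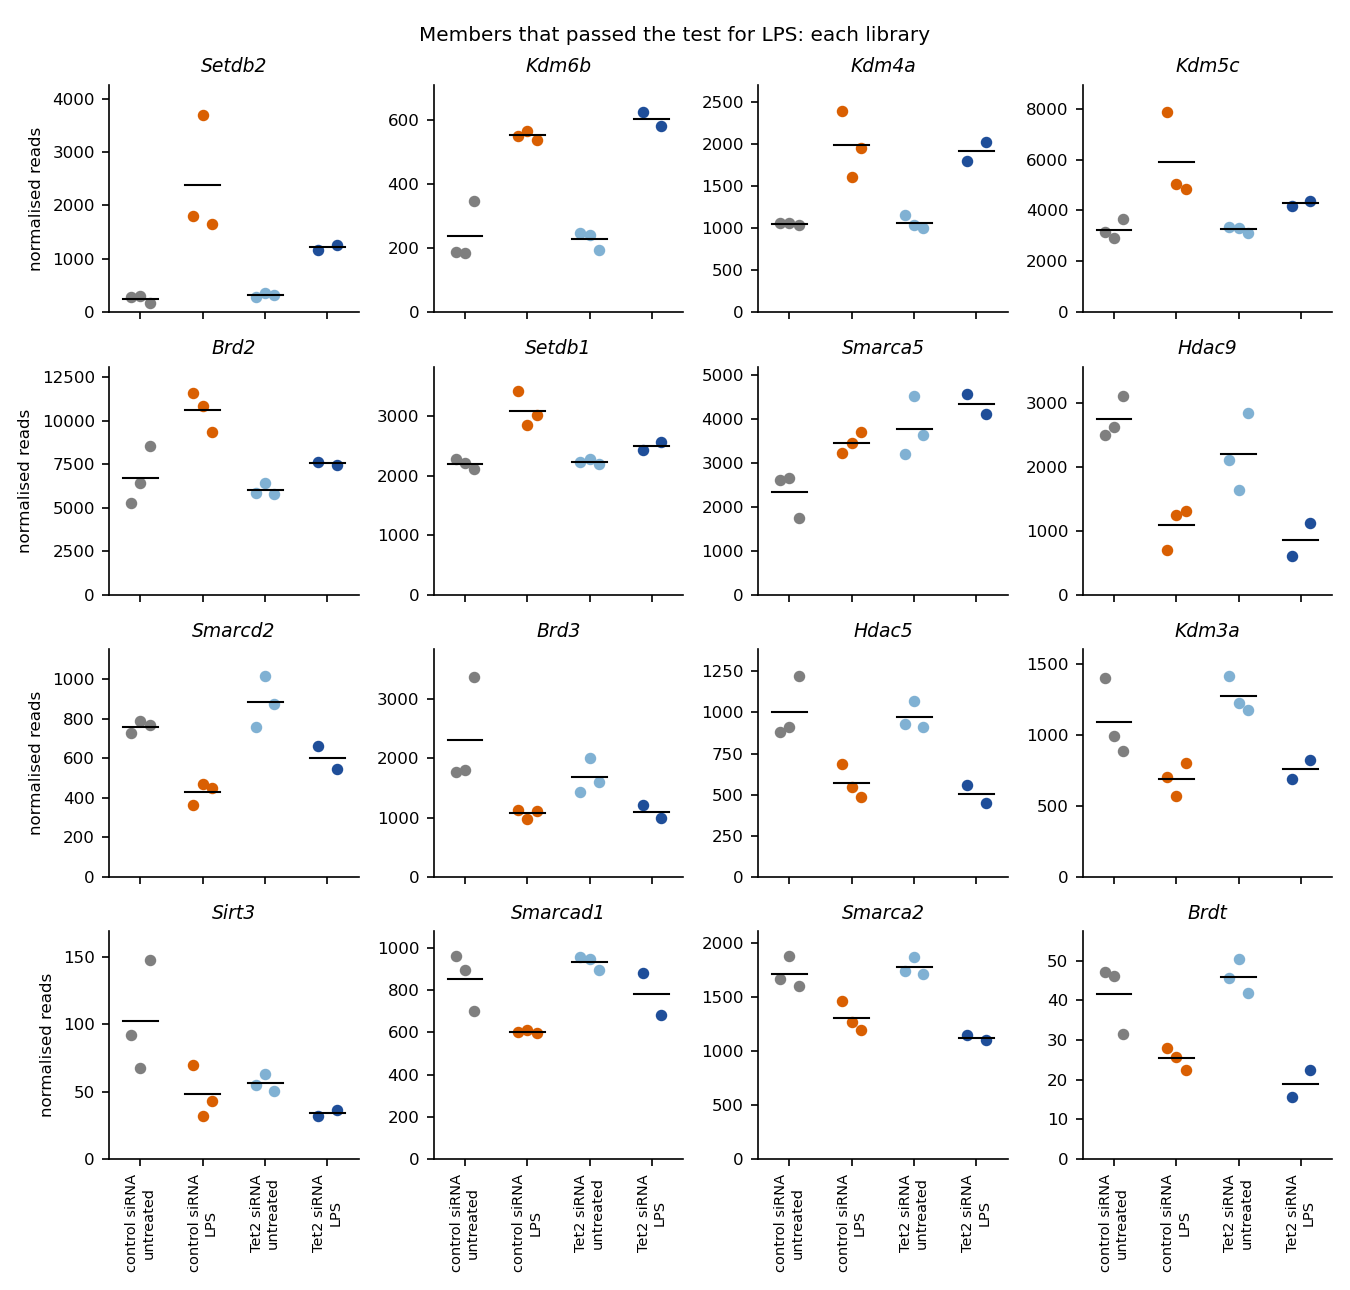
Normalised reads (vertical axes, starting at 0) of the 16 members that passed the test for LPS in siScr cells, in siTet2 cells or in both, in each of the 11 libraries (points) with group means (black lines). Setdb2 goes from 172 to 297 in untreated siScr libraries to 1644 to 3701 after LPS, and Sirt3 is the gene of the first 14 whose untreated and LPS siScr libraries overlap.

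Of these 14 calls, those of Setdb2, Kdm6b, Kdm4a, Hdac9, Hdac5, Smarcd2 and Brd3 were kept in all 21 alternatives. Quantile normalisation ended those of Kdm5c (0.46), Brd2 (0.19), Setdb1 (0.22), Smarca5 (0.31) and Sirt3 (-0.67), and with it 3 members were higher and 10 lower in place of 7 and 7. Fitting the groups compared alone ended those of Setdb1, Smarca5, Kdm3a, Sirt3 and Smarcad1, no filter those of Smarca5, Sirt3 and Smarcad1, and no variance trend that of Smarcad1. Leaving out both shallow libraries ended those of Smarca5 (0.38, limma, adjusted p = 0.0773) and Sirt3. Of the 53 members not called, 11 passed in an alternative other than library weights. Among them were Hdac1, Hdac4, Kdm2b, Setd1a, Setd1b, Sirt1 and Smarca2. Single libraries also ended calls. Brd2 was at 0.51 (limma, adjusted p = 0.0625) without replicate 1 of the untreated siScr cells. Kdm3a lay between -0.68 and -0.44 without replicate 1 or 2 of the untreated or of the LPS-treated siScr cells. Sirt3 lay between -0.81 and -0.53 without replicate 1 or 3 of the untreated or 2 or 3 of the LPS-treated siScr cells, or replicate 3 of the untreated siTet2 cells. Smarca5 lay between 0.38 and 0.63 without replicate 3 of the untreated siScr cells, any LPS-treated siScr library, or siTet2 replicate 3 without LPS or siTet2 replicate 2 with it. Smarcad1 lay between -0.48 and -0.38 without replicate 1 or 2 of the untreated siScr cells, any LPS-treated siScr library or any untreated siTet2 library.

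LPS in siTet2 cells asked whether the same members respond after transfection against Tet2. Setdb2, Kdm6b and Kdm4a rose, and Hdac5, Hdac9, Smarca2, Brdt and Kdm3a fell (limma, adjusted p under 0.05). The share called higher was 4.48% of members against 7.14% of all genes, and the share called lower 7.46% against 4.77%. At an unadjusted p under 0.05 there were 11 members, 16.4%, against 22% of all genes. Of the 8 calls, 6 were shared with siScr cells (Setdb2, Kdm6b, Kdm4a, Hdac5, Hdac9 and Kdm3a), which is 75.0% of this list and 42.9% of the 14 called with siScr. Over all genes tested those shares were 93.9% and 47.3%. Both LPS comparisons use separate libraries, and across the 67 members, which are not independent replicates, their log2 differences correlated with r = 0.92, against 0.93 across all genes.

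Setdb2 had 295, 357 and 330 normalised reads in untreated siTet2 cells and 1170 and 1269 after LPS, and rose by 1.81 (SE 0.31, limma, adjusted p = 0.00138). These LPS values were close to each other and below all 3 LPS libraries of siScr cells. Kdm6b had 246, 240 and 196 untreated and 624 and 582 after LPS, and rose by 1.30 (SE 0.23, limma, adjusted p = 0.00212). Kdm4a had 1153, 1040 and 997 untreated and 1802 and 2024 after LPS, and rose by 0.83 (SE 0.18, limma, adjusted p = 0.00685). The Kdm6b and Kdm4a increases differed from those of siScr cells by 0.14 (SE 0.31) and -0.05 (SE 0.24), which is less than the errors.

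Hdac9 had 2107, 1645 and 2849 normalised reads in untreated siTet2 cells and 610 and 1118 after LPS, and fell by 1.34 (SE 0.31, limma, adjusted p = 0.0115). Hdac5 had 929, 1070 and 913 untreated and 556 and 448 after LPS, and fell by 0.91 (SE 0.20, limma, adjusted p = 0.00817). Kdm3a had 1416, 1224 and 1174 untreated and 692 and 823 after LPS, and fell by 0.72 (SE 0.21, limma, adjusted p = 0.0440). In none of these 3 genes did the untreated and LPS libraries overlap. Smarca2, the alternative SWI/SNF ATPase BRM, had 1742, 1872 and 1707 untreated and 1145 and 1102 after LPS, and fell by 0.64 (SE 0.15, limma, adjusted p = 0.0140). Its counterpart Smarca4 was at 0.06 (SE 0.21), and the ratio of Smarca2 to Smarca4 per kilobase went from 0.389, 0.313 and 0.338 to 0.187 and 0.236 (exact permutation p = 0.1, the smallest that 3 against 2 libraries allow). In siScr cells this ratio was 0.41, 0.37 and 0.25 untreated and 0.27, 0.24 and 0.23 after LPS, with overlap (exact permutation p = 0.2). Brdt, at 46, 50 and 42 untreated and 16 and 23 after LPS, fell by 0.72 (SE 0.19, limma, adjusted p = 0.0279) on a scale that understates changes of genes with so few reads.

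**Figure D3:**
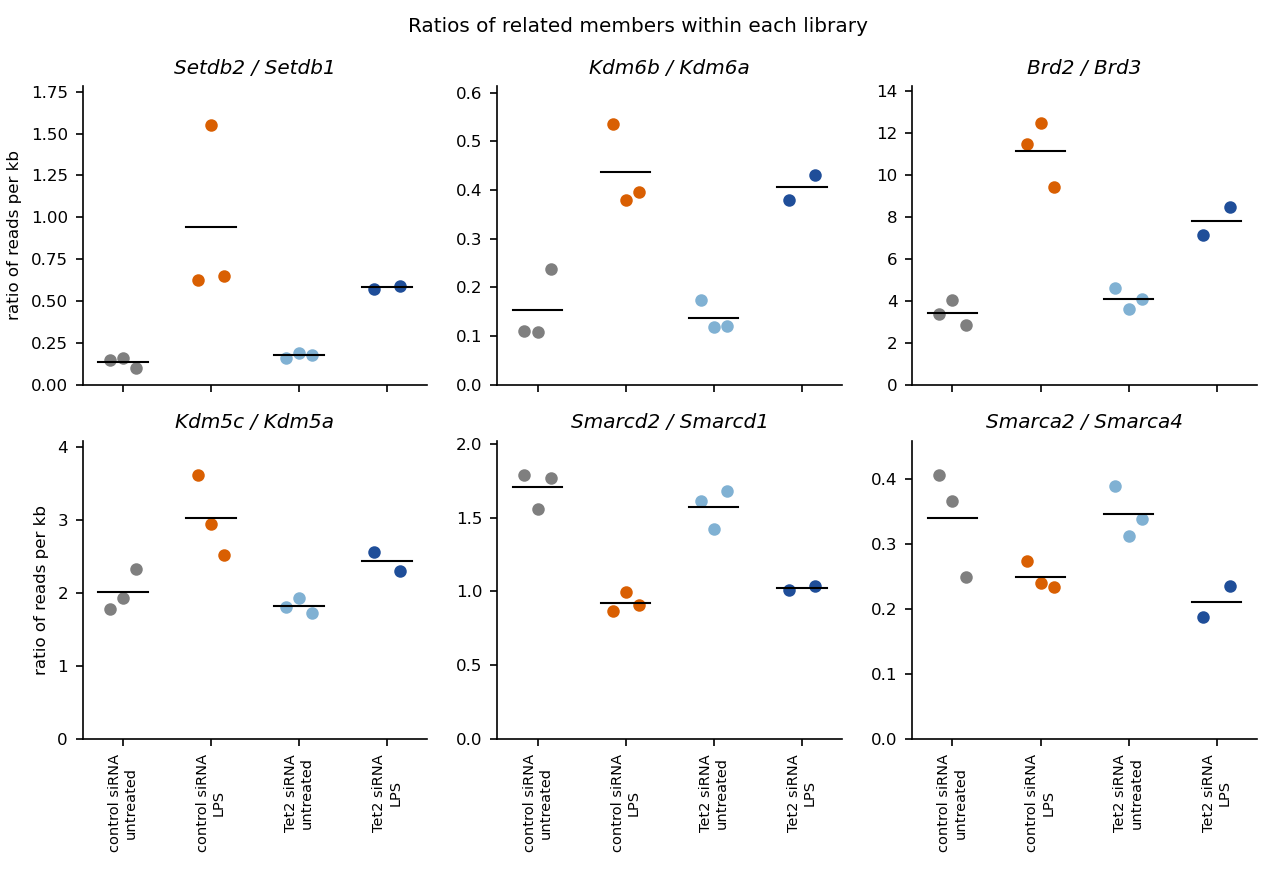
Ratio of normalised reads per kilobase of exon between related members within each of the 11 libraries (points), with group means (black lines) and vertical axes starting at 0. The ratio of Brd2 to Brd3 is 2.84 to 4.01 in untreated and 9.43 to 12.5 in LPS-treated siScr libraries, and that of Smarcd2 to Smarcd1 is 0.868 to 0.998 in the latter.

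The 8 members called with siScr but not with siTet2 kept their sign in siTet2 cells. They were Kdm5c at 0.39 (SE 0.21), Brd2 at 0.33 (SE 0.20), Smarca5 at 0.21 (SE 0.21), Setdb1 at 0.16 (SE 0.14), Brd3 at -0.59 (SE 0.26), Smarcd2 at -0.52 (SE 0.18), Sirt3 at -0.45 (SE 0.27) and Smarcad1 at -0.26 (SE 0.18). Their failure to pass, with 2 LPS libraries in place of 3, does not show a different response, for which the difference between responses is the test. Ratios of related members moved the same way as in siScr cells, with Brd2 to Brd3 at 4.61, 3.59 and 4.08 untreated and 7.14 and 8.48 after LPS, and Smarcd2 to Smarcd1 at 1.61, 1.43 and 1.68 untreated and 1.01 and 1.04 after LPS. Hdac9 to Hdac4 was 4.47, 2.66 and 5.10 untreated and 1.55 and 3.12 after LPS, with overlap (exact permutation p = 0.3). In siScr cells that ratio was 6.8, 5.2 and 4.8 untreated and 1.9, 4.7 and 4.0 after LPS (exact permutation p = 0.1). In 24 members all LPS libraries lay below all untreated ones, 35.8% against 21.3% of all genes, and in 8 they lay above, 11.9% against 21.9%.

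The Setdb2 and Kdm6b calls were kept in all 21 alternatives. Without replicate 3 of the LPS-treated siTet2 cells the count fell from 8 to 3 members, ending the calls of Kdm4a (0.75, limma, adjusted p = 0.0956), Hdac5 (-0.77, limma, adjusted p = 0.127), Smarca2, Brdt and Kdm3a. Without replicate 2 of that group 4 members passed and Hdac9, Smarca2, Brdt and Kdm3a did not, and without replicate 3 of the untreated siTet2 cells 5 passed and Hdac9, Brdt and Kdm3a did not. Over the libraries that ended their calls, Hdac9 lay between -1.14 and -0.92, Smarca2 between -0.67 and -0.62, Brdt between -0.84 and -0.59 and Kdm3a between -0.84 and -0.60. Replicates 1 and 2 of the untreated siTet2 cells also ended those of Brdt and Kdm3a, and for Kdm3a so did siScr replicate 2 without LPS and siScr replicate 1 with it. No filter ended those of Brdt and Kdm3a, and no variance trend and the replicate block each ended that of Kdm3a.

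siTet2 in untreated cells addressed differences that were present without LPS. No member passed (limma, 0 of 67 higher and 0 lower), where 1 of 12486 genes passed, 0.00801%. At an unadjusted p under 0.05 there were 7 members, 10.4%, against 10.8% of all genes, and voom on recovered reads called 0. In 8 members, 11.9%, all siTet2 libraries lay above all siScr ones, against 7.82% of all genes, and in 7, 10.4%, below, against 9.82%. The smallest p belonged to Smarca5, with 2623, 2663 and 1737 normalised reads in siScr cells and 3197, 4519 and 3646 in siTet2 cells, at 0.70 (SE 0.19, limma, adjusted p = 0.335). These groups did not overlap, and the pseudogene row Smarca5-ps was at 0.65 (SE 0.21). Next were Sirt3 at -0.59 (SE 0.24), Ezh2 at 1.06 (SE 0.44) and Kdm1a at 0.40 (SE 0.17). Sirt3 was at -0.35 without replicate 3 of the untreated siScr cells, which also took Smarca5-ps to 0.43, and Ezh2 was at 0.59 without replicate 2 of the untreated siTet2 cells. Without these 2 shallow libraries Ezh2 was at 0.43, Smarca5 at 0.37 and Smarca5-ps at 0.35. Smarca4 at 0.00 (SE 0.18), Kdm6b at -0.02 (SE 0.21), Setdb1 at 0.02 (SE 0.13) and Hdac3 at 0.19 (SE 0.15) did not pass either.

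siTet2 in LPS-treated cells, with 2 libraries against 3, also called 0 of 67 members (limma), and 0% of all genes. There were 6 members at an unadjusted p under 0.05, 8.96%, against 17.1% of all genes, and voom on recovered reads called 0. In 10 members, 14.9%, the siTet2 libraries lay above all siScr ones, against 17.9% of all genes, and in 16, 23.9%, below, against 21% of all genes. The smallest p belonged to Ezh2, at 1.51 (SE 0.49, limma, adjusted p = 0.164), followed by the mitochondrial sirtuin Sirt5 at -0.53 (SE 0.19, limma, adjusted p = 0.195), Setdb2 at -0.85 (SE 0.31, limma, adjusted p = 0.198), the acetyltransferase Kat2b at -0.69 (SE 0.26, limma, adjusted p = 0.206) and Smarcd2 at 0.47 (SE 0.18, limma, adjusted p = 0.224). For Sirt5 the values were 90, 76 and 79 normalised reads with siScr and 41 and 56 with siTet2, and for Kat2b they were 459, 786 and 436 against 343 and 304. Neither pair of groups overlapped. Without replicate 2 of the LPS-treated siScr cells, the highest of its group for both genes, Setdb2 was at -0.49 and Kat2b at -0.44.

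**Figure D4:**
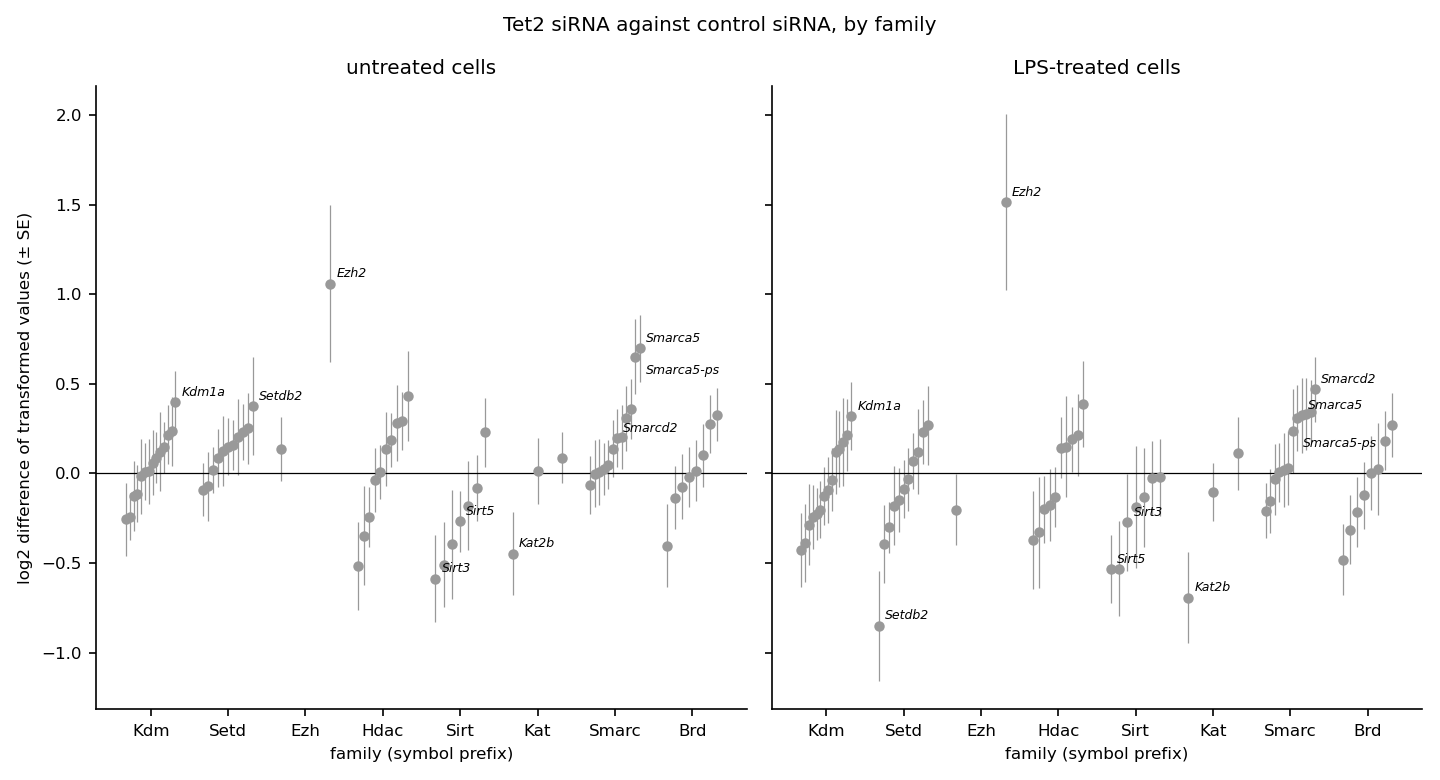
Log2 difference between siTet2 and siScr cells for each of the 67 tested members (points, with SE bars), grouped by symbol prefix, in untreated cells (left) and LPS-treated cells (right). No point passed the test. Ezh2 lies highest in both panels, at 1.06 and 1.51, with the longest bars.

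Ezh2, the main catalytic subunit of Polycomb repressive complex 2 and a gene known to rise in dividing cells, varied widely between libraries. It had 408, 741 and 379 normalised reads in untreated and 280, 501 and 432 in LPS-treated siScr cells. Untreated siTet2 cells had 525, 2033 and 1069, and LPS-treated ones 1826 and 763. Replicate 2 of the siTet2 cells was the highest library both before and after LPS, and the untreated groups overlapped. Genes of dividing cells were high in the same siTet2 libraries: the median deviation of 8 such genes (Mki67, Top2a, Cdk1, Ccna2, Ccnb1, Mcm2, Mcm5 and Pcna, chosen after the values were seen) from their means over all libraries was 1.05 and 1.02 on the log2 scale in replicate 2 of the untreated and LPS-treated siTet2 cells. It was -0.05, 0.35 and 0.29 in the other siTet2 libraries and -0.58 to -0.19 in the 6 siScr libraries. Within the siScr groups Ezh2 had another order than this median. Replicate 2 with LPS had the most Ezh2 of its group at a deviation of -0.58, and replicate 3 without LPS the least at -0.19. Mki67 alone had 12381, 16093 and 9920 normalised reads in the untreated siScr libraries, which is the order of Ezh2. After LPS it had 11494, 19330 and 21771, where the lowest library was also the lowest for Ezh2 but the highest was not. The part of these genes in the Ezh2 difference was not tested. The summed level of the 11 microglia and macrophage markers moved the other way, from 60190 to 76790 normalised reads in siScr libraries to 34650 to 54260 in siTet2 libraries, and its part in the member differences was not tested either. Without replicate 2 of the LPS-treated siTet2 cells the Ezh2 difference after LPS was 0.90.

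**Figure D5:**
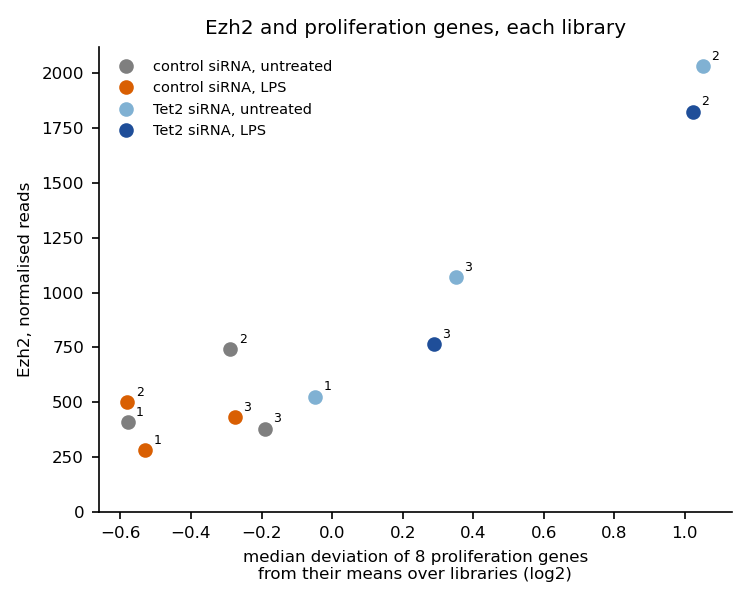
Normalised Ezh2 reads (vertical axis, from 0) against the median log2 deviation of 8 genes of dividing cells (horizontal axis) in each of the 11 libraries, coloured by group and labelled with the replicate number. Replicates 2 of both siTet2 groups stand at 2033 and 1826 reads, above the siScr libraries at 280 to 741.

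The difference between LPS responses asked whether siTet2 altered the response of a member. No member passed (limma, 0 of 67), and 0% of all genes did. There was 1 member at an unadjusted p under 0.05, 1.49%, against 2.25% of all genes, and voom on recovered reads called 0. That member was Setdb2, whose LPS increase was smaller by 1.23 log2 units in siTet2 cells (SE 0.41, limma, unadjusted p = 0.0110, adjusted p = 1.00). Without replicate 2 of the LPS-treated siScr cells, the highest library for Setdb2, it was smaller by 0.86. The next smallest p belonged to Setdb1 at -0.32 (SE 0.19), Kdm5c at -0.44 (SE 0.28), Kdm3b at -0.29 (SE 0.21) and Smarca5 at -0.37 (SE 0.28). Leaving out siScr replicate 1 with LPS, the highest library for Kdm5c, took Kdm5c to -0.21, and Kdm3b was at -0.19 without replicate 2 of the untreated siTet2 cells. Smarca5 was at -0.24 without that library, at -0.17 without replicate 3 of the untreated siScr cells and at -0.04 without both. Quantile normalisation took Setdb1 to -0.21 and Kdm5c to -0.25.

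Other chromatin genes, from 5 lists of partners and relatives outside the naming rule, also held genes that passed in both directions. Of 27 Polycomb partners 5 rose and 4 fell with LPS in siScr cells (median -0.05), where 13.2% of all genes tested were called higher and 10.4% lower. Pcgf5, a subunit of variant Polycomb complexes, rose by 2.39 (SE 0.27), from 34, 22 and 12 normalised reads to 331, 242 and 138, while the chromobox gene Cbx8 fell by 1.24 (SE 0.22). Aebp2 and Pcgf3 rose by 1.08 and 0.87. Of 30 other methyltransferases and their partners 2 rose and 4 fell (median 0.01), with Dot1l, the histone H3 methyltransferase of transcribed genes, up by 0.96 (SE 0.18), and Suv420h2 and Mll3 at -1.58 (SE 0.23) and -0.85 (SE 0.13). Among 29 acetyltransferases and deacetylase corepressors 3 rose and 3 fell (median -0.18). Sap30, a subunit of the Sin3 deacetylase complex, rose by 2.35 (SE 0.29), from 1274, 1949 and 915 to 4531, 8625 and 8273, and Rest by 0.94 (SE 0.15), while Ncoa1 and Tbl1xr1 fell by 0.86 and 1.01.

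Of 36 tested remodeller subunits and ATPases outside the Smarc names 7 rose and 3 fell (median -0.04). The SWI/SNF subunit gene Arid1b fell by 0.95 (SE 0.21), and Dpf2 and Chd7 rose by 0.76 (SE 0.17) and 0.83 (SE 0.14). Bcl7a, which encodes another SWI/SNF subunit, fell from 345, 416 and 529 normalised reads to 88, 64 and 103, without overlap (limma, adjusted p = 6.59e-05). Of 10 JmjC proteins outside the Kdm names Mina rose by 1.71 (SE 0.13), from 1044, 1105 and 1138 to 3849, 3696 and 3412, and Phf8 fell by 0.99 (SE 0.17). In siTet2 cells LPS raised 8 and lowered 10 genes of these 5 lists, which held 27, 30, 29, 36 and 10 tested genes. Of all genes 7.14% were called higher and 4.77% lower. Among those of the lists were Mina at 1.48, Sap30 at 1.85, Pcgf3 at 0.75, Mll3 at -0.70 and Bcl7a at -1.08. No gene of these lists passed in the comparisons of siTet2 with siScr cells or in the difference between LPS responses (limma, 0 in each of the 5 lists).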

How the data were processed

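Strand-specific mRNA-seq of 11 BV2 libraries was analysed, per the labels' protocols. The deposited log2 values were made by the authors with Trim Galore 0.3.3, TopHat2 2.0.9 on mm9 and DESeq2, per the submitters' processing notes, and their form is that of a variance-stabilising transformation. How reads were counted, with which gene models and with or without strand, is not given in the sources used here, so overlapping and antisense genes cannot be told apart. Inverting the transformation gave whole reads, within 0.01 of a read, for 100% of values, and these are the normalised reads and depths printed.

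Groups came from the labels. limma 3.58.1 (R 4.3.3, with a variance trend) was fitted to the deposited log2 values of all 11 libraries with 1 mean per group. Kept were 12486 genes that exceeded the lowest value (4.02) by 1 log2 unit or more in 2 or more libraries. P-values were adjusted by Benjamini-Hochberg over these genes, and an adjusted p under 0.05 is a call. The scripts were tested on simulated data. A log2 difference on this scale understates changes of genes with few reads.

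The members and gene lists were chosen with earlier results of these data known. Named are the called members, or the 5 with the smallest p where fewer than 5 were called, a fixed set of members and the highest and lowest of each family. Of the other lists, up to 4 called genes a comparison are named. Values of 1 member are not reported here, though counts include it. Further paralogs and the pairs for ratios were chosen after values were seen. Exon lengths are from GENCODE on GRCm38, matched by symbol for 71 members and by synonym for 1. Alternatives changed the filter, normalisation, variance model, block, weights and libraries.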

Additional observations from a re-analysis of the deposited data

How the results depend on the processing

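No called member changed sign in any alternative. Library weights gave 23 members (10 higher, 13 lower) in place of 14 for LPS in siScr cells, and 13 (4 higher, 9 lower) in place of 8 for LPS in siTet2 cells. The weight was 9.57 for replicate 3 of the untreated siTet2 cells and 0.204 to 1.81 for the other 10 libraries. That 1 library thus largely set the mean of its group. The count of genes called, LPS in Tet2 siRNA cells, became 2732 in place of 1487. For siTet2 against siScr in untreated cells the weights gave 1 member, Smarca5, and 298 genes (83 higher, 215 lower) in place of 1, and after LPS 4 genes in place of 0. That single untreated gene was lost, giving 0, with no filter, a stricter filter, quantile normalisation, only the groups compared, voom on recovered reads or both shallow libraries left out. The last was chosen after seeing the data, and it gave 1 gene for siTet2 against siScr after LPS. Leaving out single libraries gave 10 to 16 members for LPS in siScr cells, 3 to 9 members and 788 to 1771 genes for LPS in siTet2 cells, 0 to 1 genes for siTet2 in untreated cells and 0 to 120 genes after LPS, the 120 without siScr replicate 3 with LPS. The cause of these shifts was not tested. Fitting only the groups compared gave 10 members for LPS in siScr cells, and it was not run for the difference between responses.

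Replicate numbers are shared between groups, but of 15 same-numbered pairs only 8 had correlated deviations over 0.1 (range -0.28 to 0.63), so whether the numbers pair the libraries is unclear. The highest was between replicates 2 of the siTet2 groups. With the replicate number as a block, 17 members (9 higher, 8 lower) passed for LPS in siScr cells, 8 for LPS in siTet2 cells and 0 in the other comparisons. These 8 no longer included Kdm3a, which was at -0.63. The LPS-treated siTet2 group had 2 libraries and 2 others were shallow. Beyond the simulated data, whose recovery is not reported here, what these numbers could detect was not tested.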
